A study of Mus musculus with 6 samples.

Results

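Brca1, Brca2, Rad51ap1, Rad54l, Blm, Exo1, Fanca, Fancd2 and Fanci act in homologous recombination and in the Fanconi anaemia pathway of DNA repair. These 9 genes were picked by symbol for that function, with earlier results of these data known. They were looked up among 22026 gene symbols measured in choroid endothelial cells (ECs), and all 9 were found. The cells came from 129/B6 mice at postnatal day 5 (P5), when the retina is still differentiating, and at day 30 (P30), when vision is mature. Each age had 3 independent isolations, and each isolation pooled the eyes of 7 animals, so no value belongs to a single mouse. ECs were labelled in the living animal by retro-orbital injection of an antibody to VE-Cadherin, sorted from dissected RPE/choroid (the retinal pigment epithelium with its vascular bed), and lysed for RNA at once. The ages also differed in handling, as the pups were anaesthetised by cold and received a smaller amount of antibody than the adults. The P30 animals were of both sexes, and the sex of the P5 pups was not stated. Levels are in FPKM, read fragments scaled to transcript length and to the size of the library, which permits comparison between genes, and the sequencing depth behind it was unknown.

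Homologous recombination repairs broken chromosomes by copying the intact sister DNA: the broken end is trimmed to a single strand, a protein filament is built on that strand, and the filament then searches for and invades the matching duplex. The Fanconi anaemia pathway removes links between the strands of a duplex that would otherwise block replication forks. A core complex recognises the block and attaches ubiquitin to the Fancd2 and Fanci pair, after which the crosslink is cut out and the gap is closed by recombination. Both pathways work mainly in S and G2 phase, and many of their genes are transcribed with the cell cycle.

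The sorted cells carried endothelial markers in all 6 isolations (8 genes summing to 18049 to 18522 FPKM at P5 and 24631 to 29965 FPKM at P30). The sum was higher at P30 mainly through Plvap (mean 4692 and 11590 FPKM) and Emcn (3002 and 5523 FPKM), while Cdh5, which encodes the VE-Cadherin used for sorting, was lower in every P30 isolation (2971 and 1885 FPKM) and Pecam1 overlapped between ages. Markers of other cells also differed with age. The sum over 6 RPE genes was 56.8 to 124 FPKM at P5 and 418 to 3496 FPKM at P30, and that over 6 photoreceptor genes 2.21 to 7.25 FPKM and 41.0 to 349 FPKM, with all 6 genes of each list higher in every P30 isolation. The 9 pericyte and smooth muscle genes summed to 544 to 1841 FPKM at P5 and 2170 to 7007 FPKM at P30, the 5 fibroblast genes to 405 to 832 FPKM and 1405 to 3175 FPKM, and the 6 erythroid genes, of which Klf1 was listed at 0 throughout, to 151 to 484 FPKM and 433 to 1395 FPKM. The 8 leukocyte genes summed to 553 to 824 FPKM at P5 and 267 to 687 FPKM at P30, with Cd3e listed at 0 in all isolations and 4 genes lower in every P30 isolation than in any P5 isolation. An entry of 0 was not read as absence, since 1 to 4 of 77 ribosomal protein genes were also listed at 0 in each isolation.

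All 9 repair genes stood lower in each of the 3 P30 isolations than in any P5 isolation, a separation that 33.0% of the 12481 genes tested also showed. Rad51ap1, Rad54l, Fanca, Fancd2, Exo1, Fanci and Brca2 fell at P30 beyond the limits used, namely an adjusted p under 0.01 (limma on log2(FPKM + 1) with Benjamini-Hochberg adjustment over all genes tested) and at least a 2-fold difference in mean FPKM + 1. The remaining pair, Brca1 and Blm, met the fold but not the adjusted p. Of all genes tested, 5.82% were called lower and 5.89% higher. Genes entered the test with a mean of at least 5 FPKM at either age, and 8 of the 9 did so through P5 alone, Blm being the exception; the count of 7 therefore does not stand as evidence about the genes as a group. It was 4, 3 and 3 without P5 replicate 1, 2 and 3, and 8, 7 and 6 without P30 replicate 1, 2 and 3. Rad51ap1, Rad54l and Fanca were called in each of these 6 fits. In bulk RNA, fewer cells of a type and less RNA per cell cannot be told apart.

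**Figure D1:**
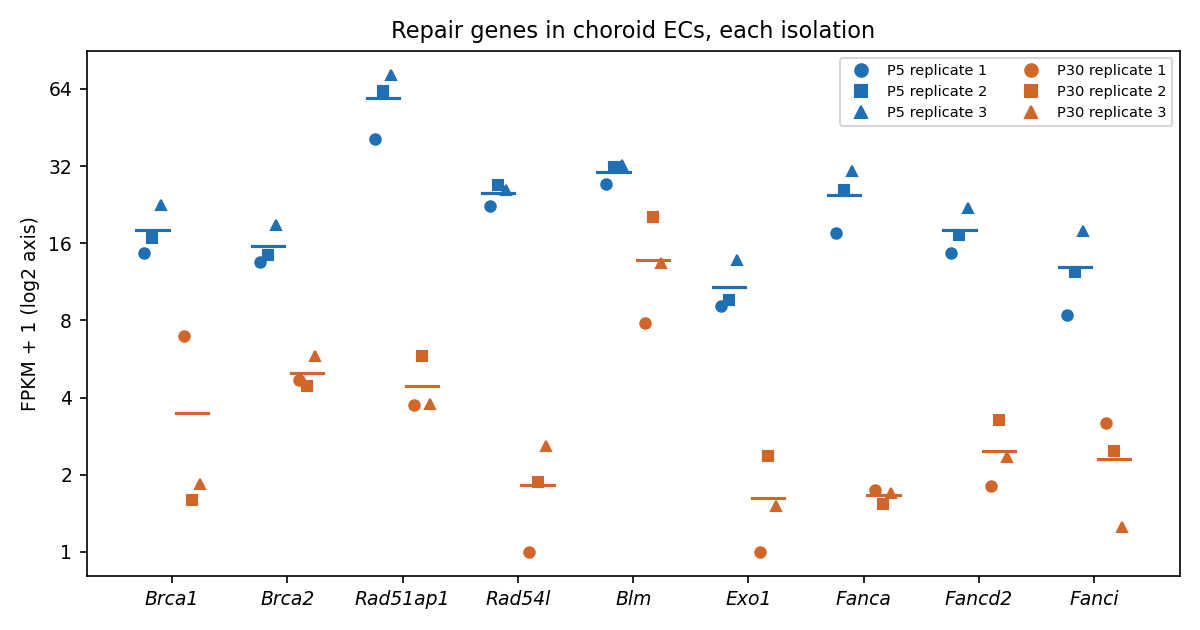
FPKM + 1 (log2 axis) of each repair gene in each isolation, with P5 in blue, P30 in orange, a symbol for each replicate and a bar at the mean of each age. Every P30 symbol lies below every P5 symbol of the same gene, and the P30 level of Blm, at 6.79 to 19.3 FPKM, stands above those of the other 8 genes.

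The members were not equally abundant. At P5 the order by mean was Rad51ap1, Blm, Rad54l, Fanca, Fancd2, Brca1, Brca2, Fanci and Exo1, from 57.9 ± 16.3 FPKM down to 9.84 ± 2.55 FPKM (SD, n = 3). Rad51ap1 and Blm stood clear of the next gene in every isolation, and all later neighbours in that order had overlapping ranges. At P30 Blm led with 12.8 ± 6.26 FPKM (SD, n = 3), its range clear of the next gene, and Brca2, Rad51ap1, Brca1, Fancd2, Fanci, Rad54l, Fanca and Exo1 followed with each neighbouring pair overlapping.

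Brca1 and Brca2 prepare the broken end for strand exchange. Brca1, a ubiquitin ligase that works with Bard1 and promotes end trimming, lies at chr11:101350078-101413269 on the minus strand (mm9, as are all gene positions given here). Its level was 13.6, 15.8 and 21.6 FPKM in the P5 isolations and 5.97, 0.59 and 0.84 FPKM in the P30 isolations. P30 replicate 1 stood apart from the other two, at a level between theirs and those of P5. The log2 fold change of FPKM + 1 was −2.69 ± 0.59 (SE) with a limma adjusted p of 0.0111, just outside the limit. Without P30 replicate 1 it became −3.37 with a limma adjusted p of 0.00117, and over 15 alternative settings the adjusted p ran from 0.00117 to 0.0564. Its partner Bard1 fell from 12.2, 13.7 and 16.7 FPKM to 2.50, 1.27 and 0.45 FPKM (log2 −2.74 ± 0.43 SE, limma adjusted p 0.0029). The Brca1 to Bard1 ratio of FPKM was 1.12, 1.15 and 1.29 at P5 and 2.39, 0.465 and 1.87 at P30, so the ages overlapped (exact two-sided permutation p = 0.6 over the 6 isolations).

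Brca2 (chr5:151325205-151372321, plus strand) helps to build the strand exchange filament on single-stranded DNA. It was at 12.5, 13.4 and 17.8 FPKM at P5 and at 3.70, 3.42 and 4.83 FPKM at P30, with close agreement among the P30 isolations. It fell by 1.64 ± 0.29 (SE) on the log2 scale (limma adjusted p 0.00463), the smallest decline among the 7 called members, and the call was lost without P5 replicate 1, 2 or 3, with a limma adjusted p of up to 0.0316.

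Rad51ap1 and Rad54l help the filament invade the intact duplex. Rad51ap1 (chr6:126873068-126889605, minus strand) was the most abundant member at P5, at 40.0, 61.9 and 71.8 FPKM, and was at 2.75, 4.79 and 2.79 FPKM at P30. The fall was 3.72 ± 0.30 (SE) on the log2 scale (limma adjusted p 0.000261), 13.3-fold in mean FPKM + 1. Rad51ap1 made up 25.1%, 29.6% and 29.0% of the FPKM summed over the 9 genes at P5 and 11.99%, 13.8% and 11.1% at P30 (exact permutation p = 0.1, the smallest that 3 against 3 isolations allow).

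Rad54l (chr4:115766869-115796295, minus strand), a DNA-dependent motor protein, was at 21.4, 26.1 and 24.9 FPKM at P5 and at 0, 0.88 and 1.59 FPKM at P30. This was the tightest set of P5 values relative to its mean after Blm. Its log2 fold change was −3.88 ± 0.42 (SE) with a limma adjusted p of 0.000698, and P30 replicate 1 was listed at 0. Lrrc41, on the opposite strand, shares 1184 exonic bases with Rad54l (15.4% of its exonic bases) and was at 64.4 to 76.1 FPKM in all isolations. Strand use in counting was not stated, so reads over the shared bases cannot be assigned to one of the pair.

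Blm and Exo1 trim and unwind DNA. Blm (chr7:87599879-87680005, minus strand), the helicase mutated in Bloom syndrome, acts in end trimming and in dissolving joined chromatids together with Top3a and Rmi1. Its P5 levels were 26.2, 30.7 and 31.2 FPKM and its P30 levels 6.79, 19.3 and 12.4 FPKM, the latter spreading widely. The mean at P30 was 43.7% of that at P5, with a log2 fold change of −1.24 ± 0.34 (SE) and a limma adjusted p of 0.0255. Leaving out P30 replicate 2 gave −1.57 and a limma adjusted p of 0.00832, within a range of 0.00832 to 0.0917 over the 15 settings. Blm made up 16.4%, 14.7% and 12.6% of the summed FPKM of the 9 genes at P5 and 29.6%, 55.7% and 49.0% at P30 (exact permutation p = 0.1). Its partners gave log2 fold changes of −0.25 (Top3a) and −0.01 (Rmi1), and neither passed the limits.

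Exo1 (chr1:177810909-177841527, plus strand), an exonuclease that trims the broken end and also serves mismatch repair, was the least abundant member, at 8.10, 8.64 and 12.8 FPKM at P5 and 0, 1.37 and 0.51 FPKM at P30. Its log2 fold change was −2.80 ± 0.50 (SE) with a limma adjusted p of 0.00493, which rose as far as 0.0367, past the limit, without P5 replicate 1, 2 or 3. P30 replicate 1 was again listed at 0.

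Fanca belongs to the Fanconi core complex, the ubiquitin ligase of the pathway. The gene lies at chr8:125792200-125842476 on the minus strand. Its P5 levels were 16.5, 24.8 and 29.6 FPKM and its P30 levels 0.74, 0.54 and 0.70 FPKM, the narrowest P30 spread of the 9 genes. The P30 mean was 2.79% of the P5 mean, and the log2 fold change was −3.85 ± 0.35 (SE) with a limma adjusted p of 0.000369. The other core genes gave smaller changes. Fancb, Fancc, Fance, Fancf, Fancg and Fancl did not pass the limits, and their summed level was 147, 164 and 147 FPKM at P5 and 110, 125 and 111 FPKM at P30. The log2 ratio of Fanca to that sum was −3.15, −2.73 and −2.31 at P5 and −7.22, −7.86 and −7.31 at P30 (exact permutation p = 0.1; ratio chosen after the values were seen). Zfp276 overlaps 652 exonic bases of Fanca on the opposite strand (7.68% of its exonic bases) and was at 26.0 to 28.3 FPKM at P5 and 34.3 to 42.0 FPKM at P30.

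Fancd2 and Fanci form the clamp that the core complex ubiquitinates. Fancd2 (chr6:113481676-113547011, plus strand) fell from 13.7, 16.2 and 21.1 FPKM to 0.80, 2.26 and 1.34 FPKM, by 2.89 ± 0.37 (SE) on the log2 scale with a limma adjusted p of 0.00134 that rose past the limit, to at most 0.0137, without P5 replicate 2 or 3. Fanci (chr7:86536815-86595151, plus strand) fell from 7.43, 11.4 and 16.9 FPKM to 2.19, 1.47 and 0.25 FPKM, by 2.52 ± 0.51 (SE) with a limma adjusted p of 0.00804. The Fanci call was lost in every fit with an isolation left out except that without P30 replicate 1, with an adjusted p of up to 0.0491 (limma). The Fancd2 to Fanci ratio of FPKM was 1.84, 1.42 and 1.25 at P5 and 0.365, 1.54 and 5.36 at P30. At P30 both genes were at 2.26 FPKM or less, and the ratio of 5.36 rests on a Fanci value of 0.25 FPKM. The proportion of the pair at P30 is therefore poorly determined. The mean log2 ratio differed by −0.04 between ages (exact permutation p = 1), and by 0.12 without P5 replicate 1 and 0.95 without P30 replicate 1. Fanci shares 856 exonic bases (14.8%) with Polg on the opposite strand, at 78.5 to 95.8 FPKM, whereas the transcript opposite Fancd2, 4931417G12Rik, reached at most 1.57 FPKM.

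The sequences upstream of the start sites were read for short motifs tied to cell cycle transcription, because the genes moved together. RefSeq windows (GRCm38.p6, 250 bases before to 50 after the start) were given for 7 members, all but Exo1 and Fancd2. The CCAAT box, the core letters bound by NF-Y, occurred on either strand in 5 of 7 (Brca1, Rad51ap1, Rad54l, Blm and Fanca), against 37.9% of 27025 windows and 39% of the 8812 windows of tested genes. An E2F-type site of 8 letters (TTTCCCGC, TTTGGCGC, TTTCGCGC or TTTGCCGC) occurred in 1 of 7, Brca2, against 2.32% of all windows and 4.29% of those of tested genes. With the leading T dropped, a form chosen after the windows were read, it occurred in 5 of 7 (Brca1, Brca2, Rad51ap1, Blm and Fanci), against 9.69% and 17.6%. The CHR element (TTTGAA or TTCGAA) was in none of the 7 windows, against 19.4% and 13.4%. Of these upstream stretches 6 stretches are printed 5′ to 3′ on the strand of the gene, ending at the base before the start, with capitals marking a CCAAT box or a 7-letter E2F-type match on either strand. Rad51ap1, Rad54l and Fanca are shown for the largest declines, Brca1 and Brca2 as the mediators of filament loading, and Blm as the member with the highest level left at P30.
Brca1 promoter, chr11:101551956-101552075, minus strand: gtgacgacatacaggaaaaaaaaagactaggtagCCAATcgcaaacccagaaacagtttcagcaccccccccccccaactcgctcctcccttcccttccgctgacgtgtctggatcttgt
Rad51ap1 promoter, chr6:126939588-126939707, minus strand: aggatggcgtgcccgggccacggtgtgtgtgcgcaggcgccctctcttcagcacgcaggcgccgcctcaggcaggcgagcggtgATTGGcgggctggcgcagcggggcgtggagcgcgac
Rad54l promoter, chr4:116123691-116123810, minus strand: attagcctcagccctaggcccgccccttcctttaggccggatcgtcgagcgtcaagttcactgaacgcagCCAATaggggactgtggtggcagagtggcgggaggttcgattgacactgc
Fanca promoter, chr8:123318577-123318696, minus strand: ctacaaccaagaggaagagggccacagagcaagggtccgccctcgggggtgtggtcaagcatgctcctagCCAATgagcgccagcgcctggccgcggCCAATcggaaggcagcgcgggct
Brca2 promoter, chr5:150522431-150522620, plus strand: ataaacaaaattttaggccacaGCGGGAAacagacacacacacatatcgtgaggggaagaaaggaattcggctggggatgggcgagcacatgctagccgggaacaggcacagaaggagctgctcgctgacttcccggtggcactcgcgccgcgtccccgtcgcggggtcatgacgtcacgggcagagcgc
Blm promoter, chr7:80534999-80535188, minus strand: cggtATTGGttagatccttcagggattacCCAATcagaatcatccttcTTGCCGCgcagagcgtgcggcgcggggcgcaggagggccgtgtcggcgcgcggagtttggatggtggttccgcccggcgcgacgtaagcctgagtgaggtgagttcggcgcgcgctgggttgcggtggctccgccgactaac
In Rad54l and Fanca a CCAAT box begins at position −50 from the start in both, and Fanca has another at −23. Brca2 has the E2F-type match at positions −168 to −162 from its start and no CCAAT box, and Blm has both kinds. The E2F-type matches of Brca1, Rad51ap1 and Fanci lie just after the start, outside the printed stretches. A match describes the letters and does not show that a factor binds there.

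The rest of the recombination machinery changed unevenly. Among 33 further homologous recombination genes, all tested, 10 fell and none rose past the limits (limma), beside 5.82% lower and 5.89% higher over all genes tested. At an unadjusted p under 0.05, 20 were lower and 0 higher, where 28.8% of all genes tested were lower and 20.7% higher. The count of 10 became 6, 2 and 2 without P5 replicate 1, 2 and 3. The median log2 fold change was −0.74, beside −0.10 over all genes tested. The members of this list that fell included Rad54b, a relative of Rad54l, at 9.32, 13.1 and 18.5 FPKM at P5 and listed at 0 in all P30 isolations (limma adjusted p 0.00102), and Brip1, the helicase bound by Brca1 (log2 −3.12). They also included the junction-cutting nuclease genes Gen1 (−2.78) and Eme1 (−2.44), Polq (−2.51), the polymerase of an alternative end joining route, and Dna2 (−2.35), the nuclease that trims ends with Blm. Rpa2, which coats single-stranded DNA, and Rad50, of the complex that first holds the broken ends, fell less (−1.40 and −1.01). Bard1, described above with Brca1, was another. The other 23 ranged from −1.75 (Palb2, the bridge between Brca1 and Brca2; limma adjusted p 0.0148) to 0.03 (Wrn), and Xrcc3 (−0.03), which assists strand exchange, was among them.

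Of 20 further Fanconi anaemia genes, 3 fell and none rose past the limits (limma), beside 5.82% and 5.89% over all genes tested, and the median log2 fold change was −0.45. At an unadjusted p under 0.05, 9 were lower and 1 higher, where 28.8% of all genes tested were lower and 20.7% higher. These 10 of 20 genes are close to the 49.5% of all genes tested that pass it in either direction. The split of 9 and 1 is only a description, because the list was chosen with earlier results of these data known. The 3 were Apitd1, a histone-fold partner of Fancm (17.5, 24.1 and 24.1 FPKM to 0, 2.89 and 0 FPKM), Ube2t, the enzyme that supplies ubiquitin for Fancd2 (22.4, 26.9 and 24.8 FPKM to 6.45, 0 and 1.88 FPKM), and Rev3l, the catalytic subunit of a translesion polymerase (log2 −1.12). Their limma adjusted p-values were 0.00262, 0.00912 and 0.0046, and at most 1 gene of the list was called without P5 replicate 1, 2 or 3. Leaving out P30 replicate 2 raised the count to 5. The 17 others ran from −1.24 (Fancm) to 0.41 (Ercc1).

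**Figure D2:**
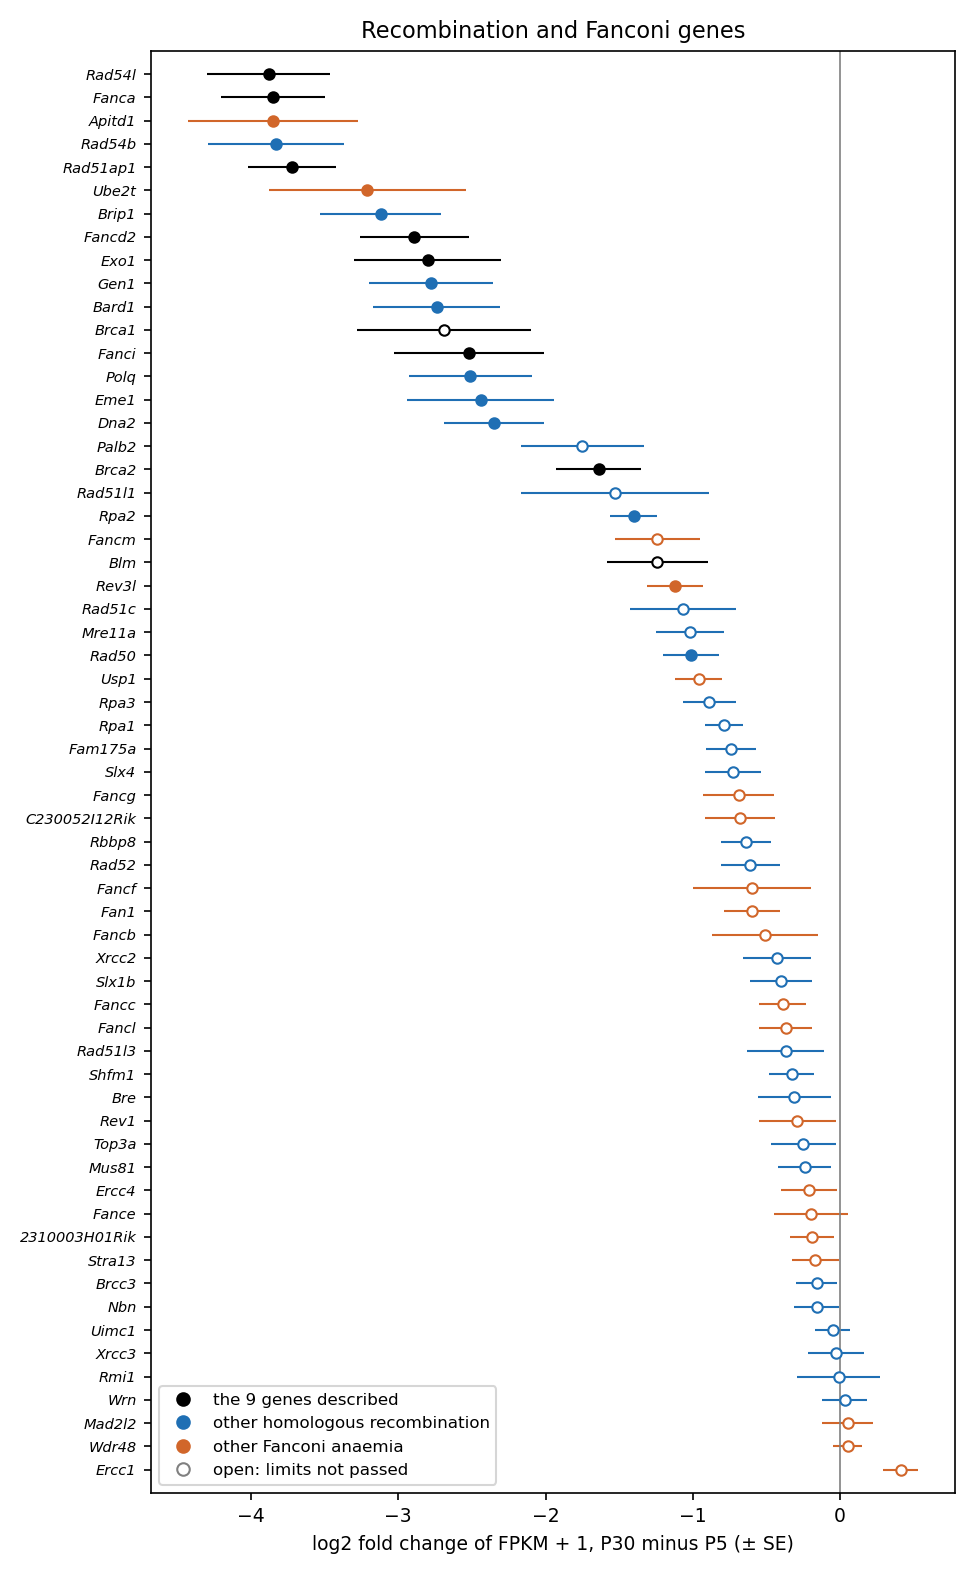
Log2 fold change of FPKM + 1 (P30 minus P5) with its standard error for the 9 genes (black) and for other homologous recombination (blue) and Fanconi anaemia genes (orange), filled where the limits were passed. Rad54l, Fanca and Rad51ap1 lie at the far left together with Apitd1 and Rad54b, which are not among the 9. The nucleases and helicases near 0 include Wrn and Mus81, and Ercc1 lies furthest right, at 0.41. Rad54b was listed at 0 in all P30 isolations, so its value depends on the 1 FPKM added.

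**Figure D3:**
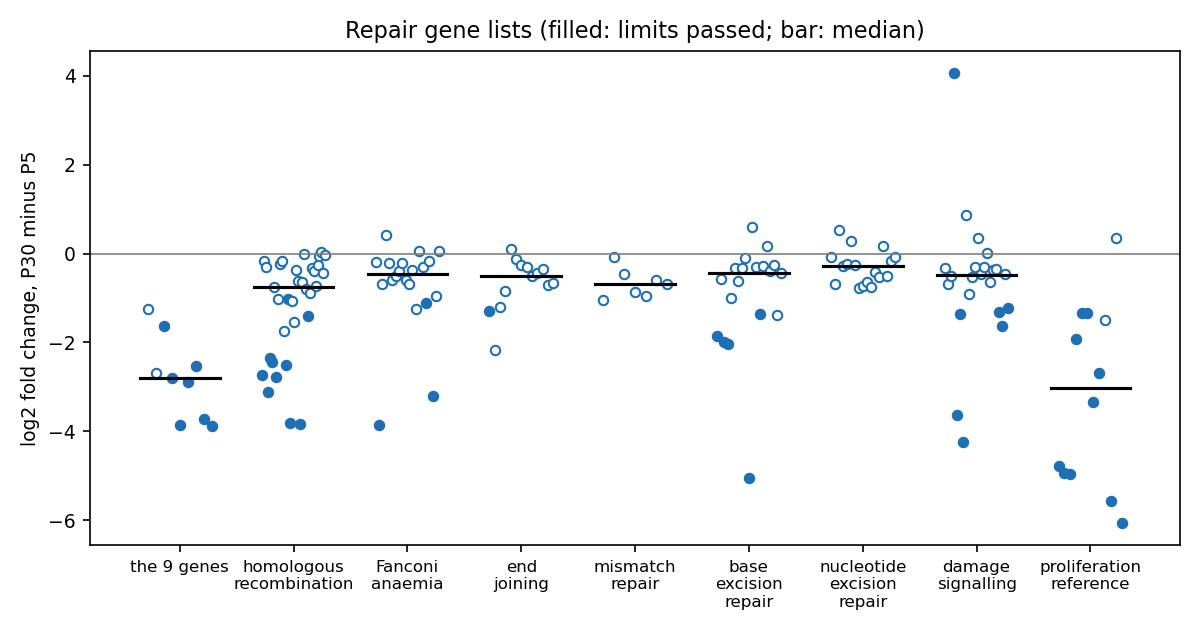
Log2 fold change of FPKM + 1 (P30 minus P5) of each tested gene in 8 groups of repair and signalling genes and in the proliferation reference, filled where the limits were passed, with a bar at the median. The 9 genes have a median of −2.80 and the 12 proliferation genes one of −3.01, and the medians of the other groups plotted lie between −0.74 and −0.28. The 9 genes and the repair lists were chosen with earlier results of these data known, so the gap between medians is only a description.

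Summed over the 9 genes, the level was 159, 209 and 248 FPKM at P5 and 22.9, 34.6 and 25.2 FPKM at P30, a log2 difference of −2.90 (exact two-sided permutation p = 0.1, the smallest possible with 3 against 3). Blm weighs heavily in the P30 sum: without it the sums were 133, 178 and 216 FPKM at P5 and 16.15, 15.32 and 12.85 FPKM at P30. The ratios below include Blm. Proliferation genes moved in the same isolations by other amounts. The sum of Mki67, Top2a, Cdk1, Ccna2 and Ccnb1, which act in mitosis or mark cycling cells, was 558, 809 and 1024 FPKM at P5 and 15.1, 19.4 and 14.3 FPKM at P30. That of Mcm2 to Mcm7, the replicative helicase, was 622, 757 and 870 FPKM and 191, 194 and 212 FPKM. Pcna, the sliding clamp of replication, was at 264, 312 and 334 FPKM at P5 and 368, 431 and 362 FPKM at P30 and did not pass the limits (log2 0.35 ± 0.12 SE, limma adjusted p 0.0582). Relative to the 5 mitotic genes the 9 repair genes were higher at P30 (log2 ratio −1.81, −1.95 and −2.05 at P5 and 0.600, 0.832 and 0.817 at P30), and relative to Mcm2 to Mcm7 they were lower (−1.96, −1.86 and −1.81 against −3.05, −2.49 and −3.07). Each ratio separated the ages in all isolations, with an exact permutation p of 0.1.

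**Figure D4:**
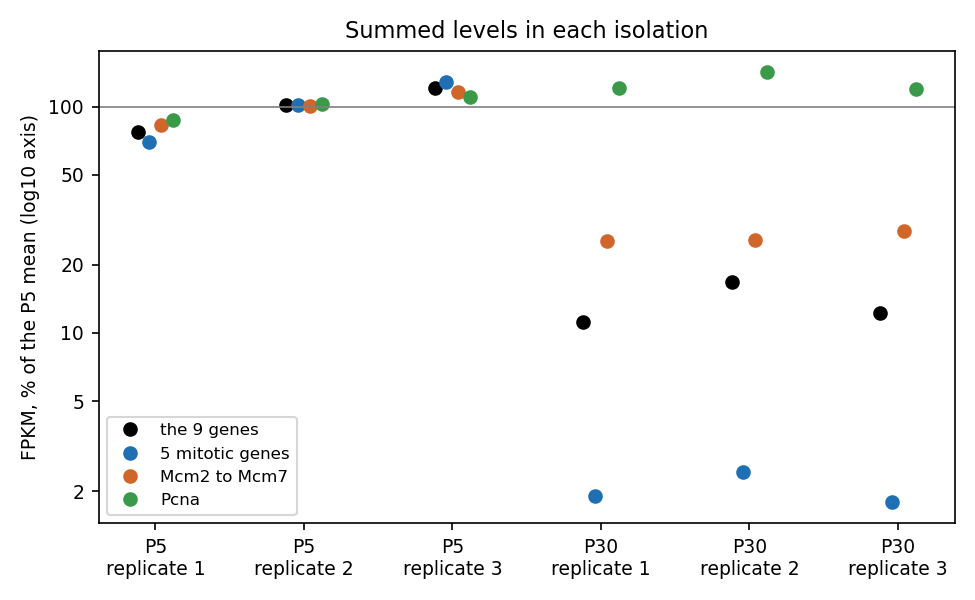
Summed FPKM of the 9 genes, of 5 mitotic genes, of Mcm2 to Mcm7, and of Pcna in each isolation, as a percent of the P5 mean of the same sum (log10 axis). At P30 the 9 genes lie between the mitotic genes, which are lowest, and the Mcm genes, while Pcna lies above its P5 mean.

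The P5 isolations shared 1 order. Replicate 1 was the lowest of the 3 in 9 of 9 repair genes and in 12 of 12 proliferation genes, and replicate 3 was the highest in 8 of 9 (all but Rad54l) and in 12 of 12. The sums of pericyte and smooth muscle markers (1841, 990 and 544 FPKM) and of leukocyte markers (824, 771 and 553 FPKM) ran the opposite way over the same isolations. Other marker sums followed neither order: RPE (124, 56.8 and 60.9 FPKM), erythroid (484, 151 and 298 FPKM) and fibroblast (644, 405 and 832 FPKM). Within the leukocyte list, Ptprc ran the same way as the repair genes (25.4, 27.7 and 28.3 FPKM). At P30 no such order was seen, since each replicate was the highest for 2 to 4 of the repair genes. Of the leukocyte genes, 3 were called lower at P30, among them Ptprc (log2 −1.67, limma adjusted p 0.000732), and the part of these other cells in the repair gene levels was not tested.

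Among the 5 genes whose profile over the 6 isolations was closest to the mean standardized profile of the 9 were 5730590G19Rik, Smc2, Cenpf and Kif2c, with Pearson's r of 0.9996 to 0.9993. Smc2 was at 97.9, 120 and 162 FPKM at P5 and 13.6, 17.02 and 12.95 FPKM at P30. Smc2 is a condensin subunit, Cenpf a kinetochore protein and Kif2c a microtubule-depolymerising kinesin. The isolations form 2 age groups, so these coefficients are a description that rests largely on the gap between ages. The members themselves ran from 0.8660 (Brca1) to 0.9986 (Rad51ap1).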

How the data were processed

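RNA from sorted choroid ECs was sequenced by the authors on TruSeq libraries from 3 isolations at P5 and 3 at P30. The deposited values are FPKM per gene, made by the authors from reads aligned to mm9 with TopHat and summarised with Cufflinks under GC and upper quartile normalization; their processing notes also name CASAVA 1.8.2 and FastQC. TopHat and Cufflinks versions and strand use are not given in the sources used here. Counts were not used here, so depth is unknown, and low values showed no steps of whole reads (the fullest bin of 0.05 log2 units among genes under 2 FPKM held 2.60% to 4.07% of genes).

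Genes with a mean of at least 5 FPKM at either age were tested with limma 3.58.1 (R 4.3.3) on log2(FPKM + 1) with a trended prior and Benjamini-Hochberg adjustment, which was checked on simulated data. A call required an adjusted p under 0.01 and 2-fold in mean FPKM + 1, the limits of the study's methods. Fold changes on this scale understate those of low genes. Single values per isolation were compared by exact two-sided permutation in Python 3.11.15. The limma p-values set the age difference against the spread between pooled isolations, moderated across genes. The permutation p-values rank the age difference among relabelings of the isolations. Neither covers the spread between single animals.

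The 9 genes, the repair lists and the marker lists were chosen with earlier results of these data known. Named were all 9, every other recombination or Fanconi gene past the limits, in each other repair list up to 3 called genes by size of change and the 2 most abundant, the 5 genes of most similar profile, and the markers; further partner genes, and the ratios to them, were singled out after their values were seen. Some genes that this rule names are not reported here. Alternatives were other pseudocounts, minimums, scalings, no trend, a replicate block and each isolation left out. Gene positions and overlaps come from GENCODE for mm9, and promoter letters from RefSeq.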

Additional observations from a re-analysis of the deposited data

How the results depend on the processing

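No repair gene of the 9 changed direction under any of 15 settings of the limma fit. This was largely fixed in advance, because every P30 value of each gene lay below every P5 value. The other minimums, no trend and the replicate block also leave the fold change itself unchanged. The count of calls among the 9 was 5 with a pseudocount of 0.1, 8 with a pseudocount of 5 and 8 with equal total FPKM. It was 7 with the other minimums, no trend or quantile normalization, and 3 to 8 with isolations left out. That of the other repair lists (26 lower, 1 higher) was 8 to 29 lower and 1 higher with isolations left out, and over all genes (726 lower, 735 higher) 291 to 754 lower and 396 to 849 higher. Equal total FPKM moved the median log2 fold change of all genes from −0.10 to −0.27 and the calls to 1070 lower and 632 higher. The ratio of the 9 genes to the 12 proliferation genes, a log2 difference of −1.30, was 2.69 against the mitotic genes alone, since these fell most, −2.06 against the replication genes alone, and −0.99 against Mcm2 to Mcm7 without Pcna, a setting chosen after seeing the data. The Fancd2 to Fanci difference of −0.04 ran from −0.99 to 0.95 with an isolation left out, turning to 0.12 without P5 replicate 1 and to 0.95 without P30 replicate 1.

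Same-numbered isolations did not deviate together (correlations of −0.0618, −0.0905 and −0.0305). These values cannot settle whether isolations with the same number were processed together, which the sources used here do not state. With a replicate block 4 of the 9 genes, 17 of the other repair genes and 524 genes lower and 585 higher over all were called, among them 5 further recombination and 1 further Fanconi gene. The cause of these changes was not tested, and 3 isolations an age limit every count.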

Other observations

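Genes of the other repair routes were read from the same fit. In mismatch repair 0 of 7 and in nucleotide excision repair 0 of 17 tested genes were called by limma, with median log2 fold changes of −0.69 and −0.28. At an unadjusted p under 0.05, 5 and 7 of them were lower, beside 28.8% of all 12481 genes tested, and 5.82% of these were called lower. Among the most abundant of them, Msh6 (−0.96), which recognises mismatches, and Ddb1 (−0.69) and Rad23b (−0.50), which act in damage recognition, did not pass. In end joining 1 of 13 was called lower, Aplf (−1.30, limma adjusted p 0.00936), while Trp53bp1 (−0.43) did not pass. The Aplf call held only when P30 replicate 2 was the isolation left out. At an unadjusted p under 0.05 (limma), 9 of these 13 genes were lower and 0 higher. Over all genes tested the shares were 28.8% and 20.7%, and the median log2 fold change of the end joining list was −0.50.

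Base excision repair had 5 of 19 genes lower, led by the glycosylase Neil3, at 45.9, 63.2 and 82.6 FPKM at P5 and 2.95, 0.75 and 0 FPKM at P30, the ligase Lig1 (−2.03) and the flap nuclease Fen1 (−2.0). Damage signalling had 6 of 22 lower, with Clspn (−4.23) and Chek1 (−3.63), the checkpoint kinase it helps to activate, in front. That count was 2 without P5 replicate 2 or 3. At an unadjusted p under 0.05 (limma), base excision repair had 10 of 19 genes lower and 0 higher. Damage signalling had 14 of 22 lower and 3 higher, where 28.8% of all genes tested were lower and 20.7% higher. The 1 gene of all repair lists that rose past the limits was Cdkn1a, the p21 inhibitor of cyclin-dependent kinases. It went from 107, 73.9 and 79.4 FPKM at P5 to 1338, 1625 and 1380 FPKM at P30 (log2 4.06 ± 0.16 SE, limma adjusted p 3.3e-05), while Trp53 gave −0.46. Only 3 of 13 meiotic recombination genes were abundant enough to test, and of these Psmc3ip fell (−1.75, limma adjusted p 0.00525). The Psmc3ip call held only when P30 replicate 3 was the isolation left out. The other 2, Sycp3 (0.56) and Mnd1 (1.08), had positive log2 fold changes and did not pass the limits.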
